A study of Mus musculus with 6 samples.

Results

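The genes described here are the laminin chains, nidogens and heparan sulfate proteoglycans of the basement membrane, measured by RNA-seq in cells labelled primary hepatic stellate cells, from CCl4-treated mice. They are the 10 genes Hspg2, Agrn, Lama2, Lama4, Lama5, Lamb1, Lamb2, Lamc1, Nid1 and Nid2, chosen by symbol from a table of 22905 genes, and all 10 passed the filter on low counts that left 14439 genes. Every library came from animals of the genotype BucheKI/KI-Hep that had received CCl4 (carbon tetrachloride), a hepatotoxin used to bring about liver fibrosis. The 3 libraries labelled DOX were compared with the 3 libraries labelled PBS, in a study of butyrylcholinesterase over-expression in hepatocytes. Animal age and sex are not given in the labels, the time point stands only as an abbreviation in the sample names, and neither the promoter behind the introduced gene nor pooling of animals is described. An action of DOX itself and one of the introduced gene cannot be told apart, since among the samples analysed none had DOX without that gene, and all had CCl4. Whether the replicates are separate animals is not stated, and p-values therefore measure the spread between these libraries only, which may be technical.

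The basement membrane is a thin sheet of matrix under epithelia and endothelia and around muscle, fat and pericytes. Laminins are trimers of an alpha, a beta and a gamma chain that polymerise on the cell surface, nidogens bridge the laminin and type IV collagen networks, and perlecan and agrin carry heparan sulfate chains that hold growth factors and tie the sheet to receptors. Normal liver sinusoids lack a continuous basement membrane, and in fibrosis laminin and type IV collagen are laid down along them by stellate and endothelial cells.

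The label of the cells was checked against marker genes. The stellate markers Lrat, Gfap and Des stood at 2.00, 0.0256 and 12.7 CPM (counts scaled to library size and by trimmed-mean factors) on average in PBS. Cdh5, of endothelium, stood at 2614 CPM there and Mpeg1, of macrophages, at 1269 CPM. Summed over 12 quiescent stellate markers, of which Ecm1 and Hgf were the most abundant (167 and 74.5 CPM in PBS), libraries held 291 to 684 CPM in PBS and 374 to 641 CPM in DOX, and the 7 myofibroblast markers, led by Col3a1 and Col1a2 with means of 240 and 169 CPM in PBS, summed to 479 to 1169 and 483 to 776 CPM. The 14 endothelial markers, among which Pecam1 followed Cdh5 with 847 CPM, summed to 6201 to 7721 CPM in PBS and 5502 to 6691 CPM in DOX. The 12 macrophage markers, with Marco second at 679 CPM, summed to 3486 to 5639 and 6993 to 12637 CPM. The 9 hepatocyte markers, led by Alb and Apob with means of 153 and 23.4 CPM in PBS, summed to 124 to 304 and 193 to 2659 CPM. The other lists were cholangiocyte (298 to 654 CPM in PBS, 510 to 643 in DOX), portal fibroblast and mesothelial (110 to 244 and 167 to 249), smooth muscle (69.2 to 89.1 and 48.1 to 65.7), lymphocyte (1.84 to 8.48 and 42.0 to 110.4) and neutrophil (1.15 to 2.89 and 6.85 to 17.5). Their leading pairs of genes in PBS were Spp1 and Krt19, Fbln2 and Cd34, Smtn and Myh11, Gzmb and Cd3e, and S100a8 and S100a9. In every library the endothelial and the macrophage sums were far above the stellate sum, so the markers go against the label of the cells, and the libraries are named only by their group. The values below describe all the RNA in a library, in which fewer cells of a type and less RNA per cell cannot be told apart.

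Promoter sequence was at hand for 7 of the 10 genes from RefSeq (GRCm38.p6), each 300 bases long, from 250 bases before to 50 bases after a transcript start. Those of Hspg2, Lama5 and Nid1, whose transcripts were lower in every DOX library than in any PBS library, are shown with that of Agrn, the other heparan sulfate proteoglycan, whose groups overlapped. Each is printed 5′ to 3′ on the strand of its gene, and capitals mark the GC box GGGCGG, searched on both strands (CCGCCC on the other).
Hspg2, chr4:137468553-137468852, plus strand: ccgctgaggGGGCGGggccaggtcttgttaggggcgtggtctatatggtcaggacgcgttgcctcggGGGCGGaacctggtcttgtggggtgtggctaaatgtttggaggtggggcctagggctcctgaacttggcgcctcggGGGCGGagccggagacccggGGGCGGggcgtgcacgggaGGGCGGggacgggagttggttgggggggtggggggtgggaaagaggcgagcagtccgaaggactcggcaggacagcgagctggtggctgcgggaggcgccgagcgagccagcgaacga
Lama5, chr2:180225810-180226109, minus strand: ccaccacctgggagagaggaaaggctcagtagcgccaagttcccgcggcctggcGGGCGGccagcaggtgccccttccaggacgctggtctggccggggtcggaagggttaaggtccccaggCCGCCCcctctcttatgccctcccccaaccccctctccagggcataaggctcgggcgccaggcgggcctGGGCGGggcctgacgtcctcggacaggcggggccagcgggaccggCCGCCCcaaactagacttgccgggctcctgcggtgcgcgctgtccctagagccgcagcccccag
Nid1, chr13:13437352-13437651, plus strand: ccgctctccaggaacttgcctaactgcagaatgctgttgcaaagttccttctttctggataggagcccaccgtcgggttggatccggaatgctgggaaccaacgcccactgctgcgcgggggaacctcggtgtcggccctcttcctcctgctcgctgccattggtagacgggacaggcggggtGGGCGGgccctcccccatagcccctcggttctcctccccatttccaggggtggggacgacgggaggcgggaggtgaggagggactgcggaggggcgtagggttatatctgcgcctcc
Agrn, chr4:156197439-156197738, minus strand: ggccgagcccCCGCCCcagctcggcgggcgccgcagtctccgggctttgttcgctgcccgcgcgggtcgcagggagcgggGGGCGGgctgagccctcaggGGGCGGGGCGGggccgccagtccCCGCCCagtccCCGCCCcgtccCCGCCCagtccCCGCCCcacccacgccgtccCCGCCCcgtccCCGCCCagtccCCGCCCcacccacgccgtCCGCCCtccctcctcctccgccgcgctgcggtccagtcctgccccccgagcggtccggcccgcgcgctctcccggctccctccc
The Hspg2 window held 5 GC boxes and the Lama5 window 4, against 1 in Nid1 and 12 in the Agrn window shown, with matches that share bases counted singly. Of 32851 RefSeq promoter windows of the same length, 35.7% held at least 1 GC box, 2.71% held at least 5 and 0.0213% at least 12. The G and C content was 70.3% in Hspg2, 72.7% in Lama5, 64.7% in Nid1 and 83.3% in that of Agrn, and the median over all windows was 52.7%. Agrn has a further RefSeq start, whose window (chr4:156186210-156186509) held 2 GC boxes at 61.3% G and C, and 19.5% of all windows held at least 2. The letters of the TATA box, TATAAA, were searched on both strands, were present in 13.6% of all windows and were found in none of these 4. The CCAAT box, searched the same way and present in 37.4% of all windows, was found only in that of Nid1 among the 4.

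Hspg2, which encodes perlecan, was the only gene of the 10 that passed the test, and it fell 1.79-fold in DOX. It lies on chromosome 4 from 137468769 to 137570630 on the plus strand (GENCODE annotation of GRCm38, matched by symbol). Hspg2 stood at 539, 639 and 548 CPM in PBS replicates 1, 2 and 3 and at 303, 397 and 266 CPM in DOX replicates 1, 2 and 3. Every DOX library lay below every PBS library, and DOX replicate 2 was the nearest to them. The group means were 575 ± 55.4 CPM for PBS against 322 ± 67.4 CPM for DOX (SD, n = 3 each), which gave -0.84 on the log2 scale (SE 0.17, 95% confidence interval -1.23 to -0.45, edgeR quasi-likelihood adjusted p = 0.0365). Of all genes tested, 2.04% were called lower and 4.38% higher at this threshold, an adjusted p of 0.05, and with library totals alone as the scaling 45.6% of all calls were higher in place of 68.3%. Read against that background, the 10 genes give 1 call. The call was lost without PBS replicate 1, 2 or 3 (edgeR adjusted p = 0.0534, 0.109 and 0.112) and without DOX replicate 1 or 3 (0.120 and 0.0501). Over the 6 fits that leave out 1 library, log2 fold changes lay between -1.02 and -0.72. Without PBS replicate 2 or 3, 0 genes of the whole table passed, so those losses were shared by every called gene. Without DOX replicate 1, 9 genes were called lower, against 294 with all libraries.

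Lama5 and Lamc1, a laminin alpha and gamma chain, were next in order of p and did not pass. Lama5, whose product is the alpha chain of laminins of mature epithelial and vascular basement membranes, lies on chromosome 2 from 180176373 to 180225859 on the minus strand. Lama5 had 62.1, 85.1 and 81.9 CPM in PBS replicates 1, 2 and 3 and 35.03, 52.7 and 45.0 CPM in DOX replicates 1, 2 and 3. The groups did not overlap, and the lowest library of each group was replicate 1. The log2 fold change of Lama5 was -0.79 (SE 0.18, 95% confidence interval -1.21 to -0.36, edgeR adjusted p = 0.0505), just outside the threshold. Lama5 was called lower by DESeq2 (adjusted p = 0.00231) and in 8 of 19 alternative settings in all, and its adjusted p over those settings ranged from 0.00231 to 0.150. Lamc1 encodes the gamma chain that most laminins share and that binds nidogen, and lies on chromosome 1 from 153218922 to 153332786 on the minus strand. Lamc1 had 637, 715 and 733 CPM in PBS replicates 1, 2 and 3 and 478, 576 and 445 CPM in DOX replicates 1, 2 and 3, again without overlap of the groups. Its log2 fold change was -0.48 (SE 0.13, 95% confidence interval -0.78 to -0.17, edgeR adjusted p = 0.0718). Lamc1 was called lower in 3 of 19 alternative settings, DESeq2 among them (adjusted p = 0.0113), with adjusted p between 0.0113 and 0.197 over the settings.

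**Figure D1:**
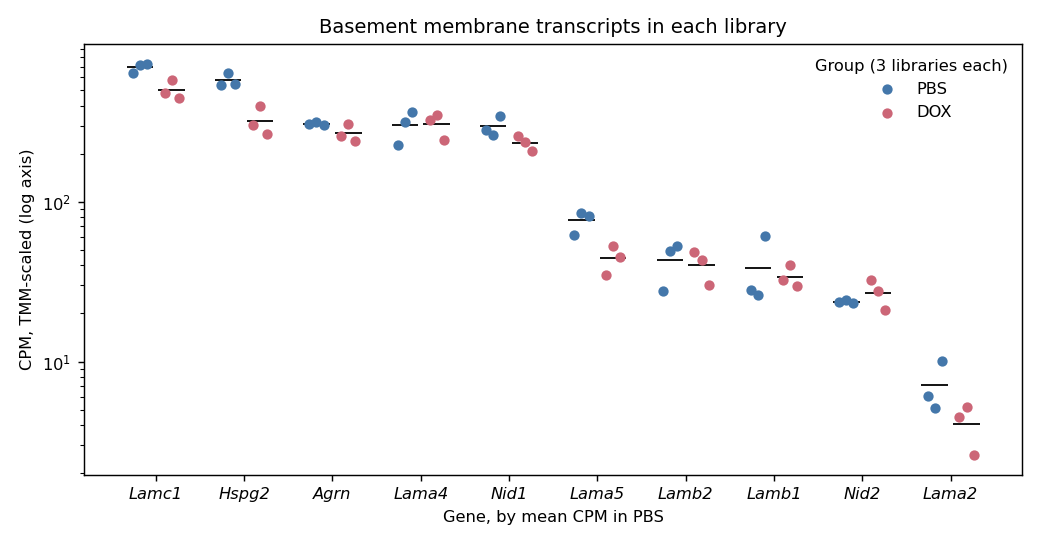
Level of each of the 10 genes in every library, as CPM scaled by trimmed-mean factors on a log axis, with 3 points per group and a line at the group mean. The DOX points of Hspg2, Lama5, Lamc1 and Nid1 lie below all their PBS points, and the other 6 genes overlap.

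The remaining laminin chains overlapped between the groups. Lama4, the alpha chain typical of endothelial laminins (chromosome 10, 38965515 to 39110188, plus strand), had 228, 317 and 365 CPM in PBS replicates 1, 2 and 3 and 324, 347 and 244 CPM in DOX replicates 1, 2 and 3. With a log2 fold change of 0.01 (95% confidence interval -0.47 to 0.49, edgeR adjusted p = 0.982) no difference was detectable, and its sign changed in 8 of 19 alternative settings. Lama2, the alpha chain of muscle and mesenchymal laminins (chromosome 10, 26980036 to 27619758, minus strand), was the scarcest of the 10 with 6.04, 5.15 and 10.1 CPM in PBS and 4.51, 5.18 and 2.59 CPM in DOX, replicates in order. The log2 fold change of Lama2 was as far below 0 as that of Lama5, at -0.79, but its error was larger (SE 0.35, 95% confidence interval -1.62 to 0.03, edgeR adjusted p = 0.189). PBS replicate 3 held the most Lama2, and without it the log2 fold change was -0.45. Lamb1 and Lamb2, the beta chains found respectively in most laminins and mainly at the neuromuscular junction, in kidney and in vessels, lie on chromosome 12 from 31265234 to 31329644 and on chromosome 9 from 108479736 to 108490530, both on the plus strand. Lamb1 had 27.8, 26.1 and 61.0 CPM in PBS and 32.2, 40.2 and 29.7 CPM in DOX, replicates in order. A single library, PBS replicate 3, was far above the rest, and the log2 fold change of Lamb1 of -0.17 (SE 0.33, edgeR adjusted p = 0.773) became 0.33 without it (edgeR adjusted p = 0.287). The same library had the highest sums of the myofibroblast (1169 CPM) and stellate (684 CPM) markers, a relation whose part in the Lamb1 and Lama2 values was not tested. Lamb2 had 27.8, 49.2 and 52.5 CPM in PBS and 48.3, 43.1 and 29.99 CPM in DOX, and its log2 fold change was -0.09 (SE 0.27, edgeR adjusted p = 0.853). Of Lamb2 the lowest PBS and the lowest DOX library were nearly equal.

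Of the nidogens, Nid1 was lower in every DOX library and Nid2 was not. Nid1 (chromosome 13, 13437551 to 13512269, plus strand) had 283, 262 and 344 CPM in PBS replicates 1, 2 and 3 and 259, 236 and 207 CPM in DOX replicates 1, 2 and 3. The highest DOX library and the lowest PBS library were close, and the log2 fold change of -0.34 (SE 0.14, unadjusted p = 0.0404) had an edgeR adjusted p of 0.155. Without PBS replicate 3, the highest library, it was -0.22. Nid2 (chromosome 14, 19751265 to 19811787, plus strand) had 23.6, 24.1 and 23.2 CPM in PBS and 32.2, 27.5 and 21.0 CPM in DOX. Its log2 fold change was 0.19 (SE 0.16, edgeR adjusted p = 0.478), and was 0.04 without DOX replicate 1 and 0.34 without DOX replicate 3. The last 437 bases of Nid2 overlap Rtraf on the minus strand, and since it is not stated whether counting used the strand, reads there cannot be assigned to either gene. No other gene of the 10 overlaps a further gene of the count table.

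Agrn, which encodes agrin, a proteoglycan that binds dystroglycan and clusters acetylcholine receptors at the neuromuscular junction, lies on chromosome 4 from 156165290 to 156197488 on the minus strand. Agrn had 307, 314 and 301 CPM in PBS replicates 1, 2 and 3 and 257, 308 and 239 CPM in DOX replicates 1, 2 and 3. DOX replicate 2 lay within the narrow PBS range, and the log2 fold change was -0.20 (SE 0.11, 95% confidence interval -0.47 to 0.07, edgeR adjusted p = 0.289). Without DOX replicate 2 it was -0.31 and without DOX replicate 3 it was -0.12.

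**Figure D2:**
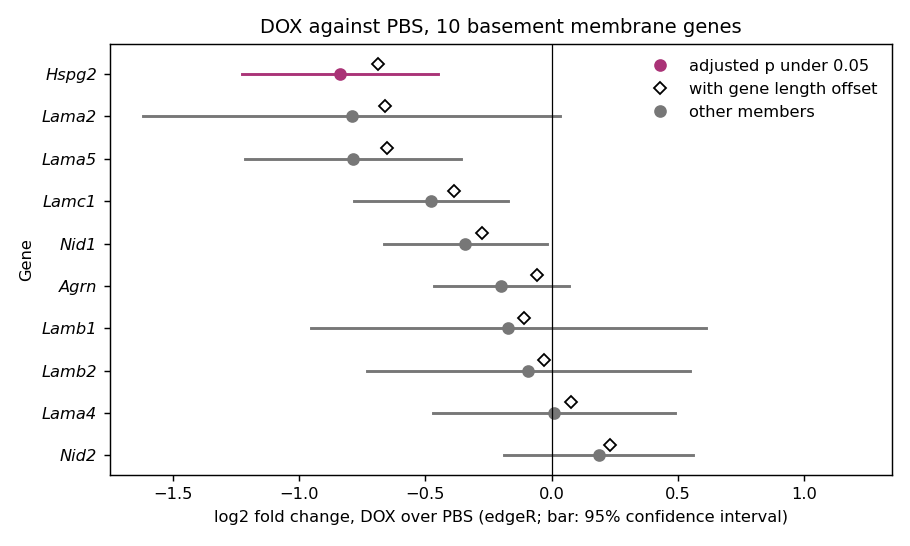
Log2 fold change of DOX over PBS for each of the 10 genes (filled points, edgeR) with its 95% confidence interval (bars), and the value after a gene length offset (open diamonds). Hspg2 at -0.84 is the 1 gene past the adjusted threshold, and the intervals of Lama5, Lamc1 and Nid1, which are not adjusted for the number of genes, also lie below 0.

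In all, 8 of the 10 log2 fold changes were below 0, beside 7417 of the 14439 genes tested. The median of the 10 was -0.27, where the median of all genes tested was -0.01. The edgeR test called 1 gene lower and 0 higher, and limma-voom gave the same counts, against 1.95% and 4.02% of all genes in limma-voom. DESeq2 called 3 lower (Hspg2, Lama5 and Lamc1) and 0 higher, where it called 7.03% of all genes lower and 11.6% higher. At an unadjusted p under 0.05, edgeR found 4 lower and 0 higher, against 12.7% and 15.9% of all genes. The DOX libraries lay entirely below the PBS libraries for 4 of the 10 genes and entirely above for 0, while over all genes tested these shares were 17.7% and 16.9%. Summed over the 10 genes, transcripts made up 2366 CPM in PBS and 1779 CPM in DOX.

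Since endothelial transcripts were far more abundant than stellate ones, each gene was also set against the summed endothelial markers of its own library. Per 1000 CPM of endothelial markers, Hspg2 had 86.9, 84.8 and 71.0 CPM in PBS replicates 1, 2 and 3 and 45.3, 60.8 and 48.4 CPM in DOX replicates 1, 2 and 3. The groups remained apart on this scale, and the DOX mean was 0.636 of the PBS mean. Lama5 (10.02 to 11.3 in PBS, 5.24 to 8.18 in DOX) and Lamc1 (94.9 to 102.8 and 71.4 to 88.2) also did not overlap per 1000 endothelial CPM. Nid1 did overlap (34.8 to 45.7 in PBS, 36.1 to 38.7 in DOX), and Nid2 lay entirely higher in DOX, by little (highest PBS library 3.80, lowest DOX library 3.82). This scale was computed for the 10 genes only. The share of all genes whose groups lie apart on it is therefore not known, and the separations have no background to be read against. Of the endothelial markers only Tek, the angiopoietin receptor gene, was called, with a log2 fold change of -0.80 (edgeR adjusted p = 0.0311). Yet 7 of the 14 lay entirely lower in DOX and 1 entirely higher, beside 17.7% and 16.9% of all genes, and the median of the 14 was -0.26. The log2 fold change was below 0 for 11 of the 14, and above 0 for Clec4g (0.48), Lyve1 (0.23) and Stab2 (0.01). Clec4g, which was not called, was the 1 marker entirely higher in DOX. Clec4g, Lyve1, Stab2, Oit3 and Erg were named after their values were seen. Oit3 and Erg had -0.80 and -0.53 (edgeR adjusted p = 0.0507 and 0.0506), while Cdh5, the largest term of the sum, had -0.15. The part of these lower endothelial markers in the Hspg2 and Lama5 values was not tested. Macrophage marker sums, 3486 to 5639 CPM in PBS and 6993 to 12637 CPM in DOX, did not overlap between the groups, and their part in the lower values of Hspg2, Lama5, Lamc1 and Nid1 was not tested.

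The make-up of each family was compared as shares of FPKM (counts scaled to gene length and library total, as deposited by the authors), which allows levels of different genes to be compared and does not depend on scaling between libraries. Per length, Lamc1 was the most abundant of the 10, with 95.3 ± 8.69 FPKM in PBS, followed by Lama4 (52.5 ± 12.8), Nid1 (51.9 ± 7.88), Hspg2 (41.8 ± 4.51) and Agrn (25.4 ± 0.744, SD, n = 3 each). The PBS ranges of Lama4, Nid1 and Hspg2 overlapped, and those of Lamc1 and Agrn lay apart from them. Lamb2 (8.07 ± 2.63 FPKM), Lama5 (7.02 ± 1.26), Lamb1 (6.87 ± 3.60) and Nid2 (5.05 ± 0.143) followed in PBS. Their ranges overlapped, except that every Nid2 value lay below every Lama5 value, and Lama2 had 0.623 ± 0.236 FPKM. Lamc1 alone thus exceeded the summed beta chains at 15.004 FPKM, and the 5 alpha chains of the table summed to 60.6 FPKM.

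Lama4 made up 86.3, 86.9 and 88.3% of the FPKM of Lama2, Lama4 and Lama5 in PBS, replicates in order. The DOX shares were 93.9, 91.9 and 90.7%. Every DOX share was higher, with a difference of 5.002 percentage points between the means. Lama4 is 6046 bp long, and Lama5 and Lama2 are 11388 and 11896 bp. Fold changes fell with gene length over the whole table (below), and the part of that trend in the Lama4 share was not tested. Of the proteoglycans, every DOX share of Hspg2 was lower. Hspg2 held 60.7, 64.1 and 61.5% of the FPKM of Hspg2 plus Agrn in PBS and 50.9, 53.1 and 49.4% in DOX, replicates in order, a difference of -10.95 percentage points. Nid1 held 90.8, 89.9 and 92.4% of the nidogen FPKM in PBS and 86.8, 87.5 and 89.0% in DOX, a difference of -3.24 percentage points with no overlap. The Lamb1 share of the beta chains overlapped, at 45.2 ± 10.04% in PBS and 45.0 ± 5.27% in DOX (SD, n = 3 each). For the 3 shares without overlap the two-sided exact permutation p was 0.1, the smallest that 3 against 3 libraries allow, or 0.133 adjusted over the 4 shares, so none could pass 0.05, and that of Lamb1 was 0.9.

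**Figure D3:**
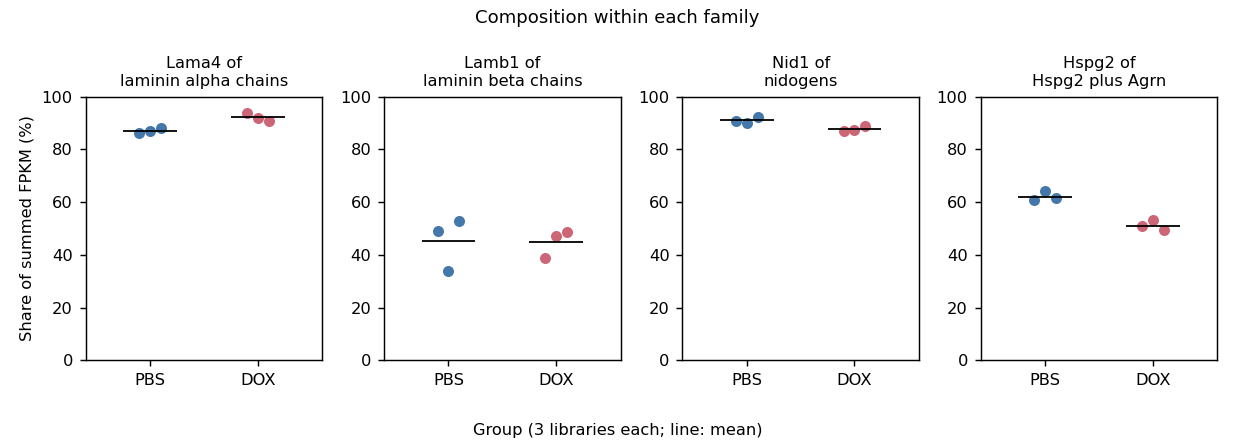
Share of summed FPKM (percent, y axis) held by Lama4 among Lama2, Lama4 and Lama5, by Lamb1 among the beta chains, by Nid1 among the nidogens and by Hspg2 among Hspg2 plus Agrn, in each library (points) with the group mean (lines). The DOX points are all higher for Lama4, all lower for Nid1 and Hspg2, and mixed with the PBS points for Lamb1.

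The fold changes followed gene length across the whole table, which bears on genes as long as these. Lengths implied by the deposited FPKM ran from 4884 bp for Nid2 to 14402 bp for Hspg2. Among 2041 tested genes longer than 8000 bp the median log2 fold change was -0.14 and 4.90% were called lower, against 0.09 and 0.617% among 811 genes of up to 1000 bp. The log2 fold change was below 0 for 65.3% of genes longer than 8000 bp. That share was 58.5% from 6000 to 8000 bp and 54.8% from 4000 to 6000 bp. Hspg2, Lama2 and Lama5, the 3 genes with the lowest fold changes, were 14402, 11896 and 11388 bp long, but Agrn, at 12650 bp, had a log2 fold change of -0.20. For the 545 genes within 20% of the length of Hspg2 the median was -0.14 and the middle 50% lay between -0.35 and 0.12, so Hspg2 at -0.84 was below that range. Lama5 was likewise below the middle 50% of the 962 genes of its length (-0.33 to 0.14), and so were Lamc1 (-0.30 to 0.18) and Nid1 (-0.28 to 0.23) for theirs. With the length trend of each library taken off (an alternative added once the trend was known), Hspg2 had a log2 fold change of -0.69 (edgeR adjusted p = 0.0452), Lama5 -0.65 (0.0639), Lamc1 -0.39 (0.0884) and Nid1 -0.28 (0.224).

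**Figure D4:**
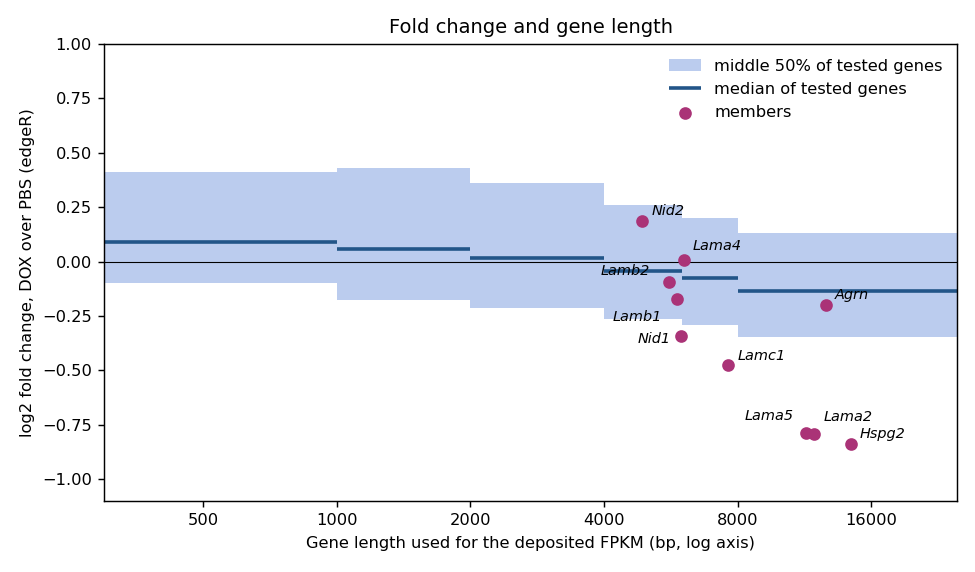
Log2 fold change of DOX over PBS (y axis, edgeR) against gene length in bp (log axis). Bars give the median and shading the middle 50% of all tested genes in 6 length bins, whose medians run from 0.09 for the shortest to -0.14 for the longest, and points give the 10 genes, of which Hspg2, Lama2, Lama5, Lamc1 and Nid1 lie below the shading.

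Genes that work with the 10 were described in 7 lists. Of 12 tested genes of associated and assembly proteins, edgeR called 2 lower, Pxdn and Tinagl1, and 0 higher, beside 2.04% and 4.38% of all genes. Pxdn encodes peroxidasin, the enzyme that crosslinks type IV collagen, and averaged 191 ± 12.8 CPM in PBS against 108 ± 19.3 CPM in DOX (SD, n = 3 each), or -0.83 on the log2 scale (SE 0.14, edgeR adjusted p = 0.0291). Tinagl1, which encodes a matricellular protein of basement membranes, averaged 347 ± 64.2 and 183 ± 46.4 CPM, or -0.93 on the log2 scale (SE 0.21, edgeR adjusted p = 0.0484). Its call was lost without any of the 5 libraries PBS replicates 1, 2 and 3 and DOX replicates 1 and 2, and with a robust fit or the replicate number as a block. The Pxdn call was lost without PBS replicate 2 or 3 or DOX replicate 1 or 2. Without PBS replicate 2 or 3, no gene of the whole table passed. Sparc, a collagen-binding matricellular gene, had a log2 fold change of -0.38 (edgeR adjusted p = 0.218), or -0.16 without PBS replicate 3. The median of this list was -0.15.

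Of 6 tested collagens of the network and multiplexin types, edgeR and limma-voom called 0. DESeq2 called 1, Col15a1, as lower, beside 7.03% of all genes. In edgeR 1 was lower at an unadjusted p under 0.05, beside 12.7% of all genes. Col4a1, a chain of the main type IV collagen network, averaged 1634 ± 294.6 CPM in PBS against 1284 ± 258.5 CPM in DOX, or -0.35 on the log2 scale (SE 0.19, edgeR adjusted p = 0.281). Col15a1 had a log2 fold change of -0.87 (edgeR adjusted p = 0.120) and Col18a1, the third heparan sulfate proteoglycan of basement membranes, 0.61 (0.294). DOX replicate 3 held the most Col18a1, 20.4 CPM, and without it the value was 0.12. Without PBS replicate 3, Col15a1 had -0.57 and Col4a1 -0.20. The median was -0.30. Of 6 tested laminin and netrin chains outside the 10 genes, edgeR, limma-voom and DESeq2 called 0. None reached an unadjusted p under 0.05 in edgeR, and their median was 0.16. Lamc3 and Lama3 had log2 fold changes of 0.89 and 0.41 (edgeR adjusted p = 0.396 and 0.656), from PBS means of 5.21 and 1.10 CPM. Without PBS replicate 1 these were 0.40 and 0.04.

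Of 14 tested receptors, edgeR called only Sdc4, which encodes the transmembrane heparan sulfate proteoglycan syndecan-4. That is 1 higher and 0 lower, beside 4.38% and 2.04% of all genes. Sdc4 rose from 138 ± 20.2 to 300.4 ± 2.83 CPM (SD, n = 3 each), by 1.12 on the log2 scale (SE 0.12, edgeR adjusted p = 0.0200). The call was lost without PBS replicate 2 (edgeR adjusted p = 0.0663) or 3 (0.0739), fits in which no gene of the whole table passed. Lrp4, the agrin receptor of the neuromuscular junction, averaged 17.1 ± 3.56 and 34.5 ± 10.5 CPM, 1.02 on the log2 scale (SE 0.24, edgeR adjusted p = 0.0530), and Sdc3 a log2 fold change of 0.57 (0.103), or 0.36 without DOX replicate 1. DESeq2 called Sdc4, Lrp4 and Sdc3 higher and limma-voom Sdc4, where these tools called 11.6% and 4.02% of all genes higher. Dag1 and Itgb1 are the genes of dystroglycan and of an integrin beta chain found in several, but not all, laminin receptors. Both were named after their values were seen, and had log2 fold changes of -0.09 and 0.07 (edgeR adjusted p = 0.609 and 0.688). The median over the receptors was 0.10.

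Of 12 tested genes that glycosylate dystroglycan for laminin binding, 11 had a log2 fold change below 0, beside 7417 of the 14439 genes tested. The median of the 12 was -0.28, and edgeR called 1 of the 12 lower and 0 higher, beside 2.04% and 4.38% of all genes. That call was lost without PBS replicate 2 or 3 or DOX replicate 1 or 2, and with the replicate number as a block. Without PBS replicate 2 or 3, no gene of the whole table passed. Pomt2 and B3galnt2, which act early in building the glycan, had log2 fold changes of -0.40 and -0.44 (edgeR adjusted p = 0.0564 and 0.0891). The DOX libraries lay below the PBS libraries for 6 of the 12, beside the 17.7% of all genes given above.

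Of 19 heparan sulfate genes, Xylt1, B4galt7 and Glce fell and Xylt2 rose, and the median was -0.14. These are 3 edgeR calls lower and 1 higher, beside 2.04% and 4.38% of all genes. Xylt1 and Xylt2 are paralogs that add the first xylose of a glycosaminoglycan chain. Xylt1 averaged 41.7 ± 2.64 CPM in PBS against 28.1 ± 3.84 CPM in DOX, and Xylt2 16.02 ± 2.38 and 28.1 ± 4.44 CPM (SD, n = 3 each), so that the DOX means of the pair were nearly equal. Their log2 fold changes were -0.57 and 0.81 (SE 0.12 and 0.17, edgeR adjusted p = 0.0451 and 0.0396). B4galt7, which adds the next sugar of the linker, and Glce, the epimerase of the growing chain, had log2 fold changes of -0.49 and -0.47 (edgeR adjusted p = 0.0352 and 0.0408). Each of these 4 calls was lost in 7 to 10 of 19 alternative settings. Among these were the replicate block and the fits without PBS replicate 2, PBS replicate 3 or DOX replicate 1. Without PBS replicate 2 or 3, no gene of the whole table passed. Without PBS replicate 1 the calls of Xylt1, Xylt2 and Glce were lost, without DOX replicate 2 those of Xylt1, B4galt7 and Glce, and without DOX replicate 3 that of Xylt2. Of 13 tested proteases that act on basement membranes, edgeR and limma-voom called 0. DESeq2 called 2 lower and 4 higher, beside 7.03% and 11.6% of all genes. At an unadjusted p under 0.05, edgeR found 2 lower and 4 higher, beside 12.7% and 15.9% of all genes, and limma-voom found 5 in all. Mmp9, Htra1 and Mmp14 had log2 fold changes of 2.73, 0.83 and 0.49 (edgeR adjusted p = 0.0646, 0.0648 and 0.0741), and the median of the list was 0.43. Mmp9 was scarce, with a mean of 0.616 CPM in PBS and 7.81, 2.34 and 2.24 CPM in DOX replicates 1, 2 and 3. Over 17 alternative settings its log2 fold change ran from 0.73 to 3.42. Mmp2 and Ctsl, the 2 called lower by DESeq2, had -1.17 and -0.42 (edgeR adjusted p = 0.0976 and 0.0795). Both were named after their values were seen. Macrophages also express several of these proteases, and the macrophage marker sums given above were higher in DOX, a part that was not tested. Plg, named after its values were seen, was also called higher by DESeq2. It had 13.8, 4.45 and 40.0 CPM in DOX replicates 1, 2 and 3. The hepatocyte marker sums of these libraries were 622, 193 and 2659 CPM, and their part in the Plg values was not tested.

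**Figure D5:**
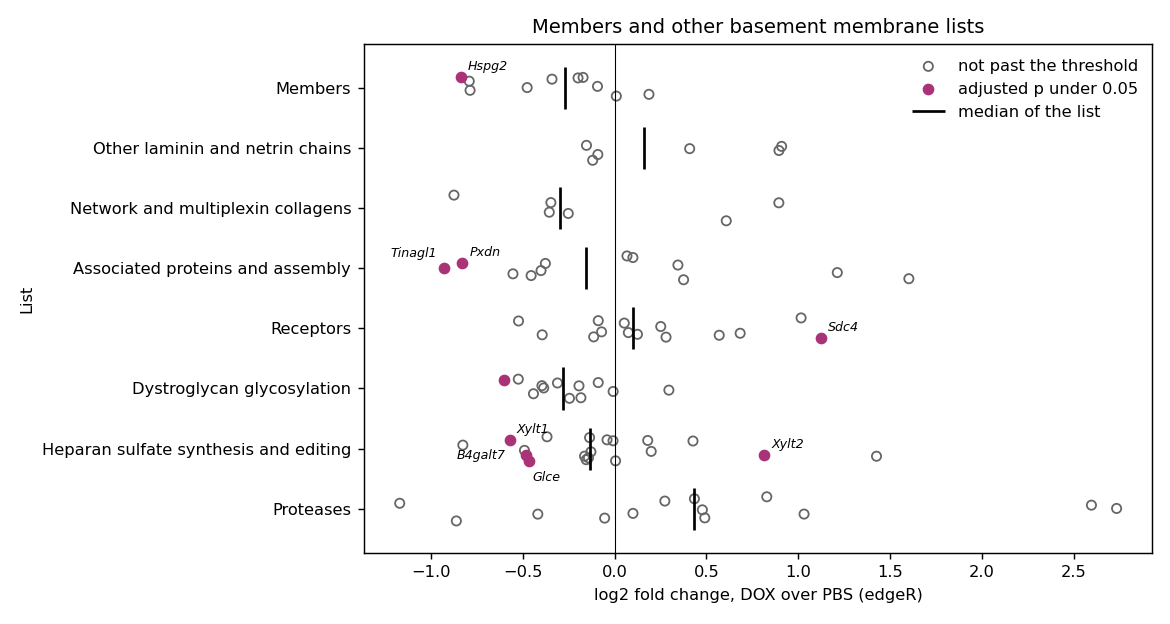
Log2 fold change of DOX over PBS (x axis, edgeR) of each tested gene of the 10 (top line, Members) and of 7 further basement membrane lists, with genes past an adjusted p of 0.05 filled, their names beside them except in the glycosylation list, and list medians as vertical lines. The median of the 10 genes is -0.27, and medians of the lists run from -0.30 for the collagens to 0.43 for the proteases.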

How the data were processed

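Total RNA of the 6 samples was made into SMARTER mRNA libraries, per the labels' protocols. Per the submitters' processing notes, builds GRCm38, mm10 and hg38 were named, without a role. The sources used here do not give the aligner, the counter, its strand setting or its treatment of multiply matching reads. Raw counts per gene symbol and FPKM values were deposited by the authors as separate files with 1 column per library. The deposited FPKM equalled counts divided by a fixed gene length and by the library total, so they carry no scaling beyond library totals. Totals were 36220282 to 37707364 counts per library, and 1 read was worth 0.0253 to 0.0293 CPM. Chi-square statistics between replicates of a group were 38.6 to 82.1 per degree of freedom, so no library repeated another.

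Counts of all genes were tested with edgeR 4.0.16 (quasi-likelihood, TMM factors, R 4.3.3), with group as the only term and a filterByExpr minimum count of 10 and total of 15. P-values were two-sided and adjusted by Benjamini-Hochberg over 14439 genes. The SE came from the F statistic, values after ± are SD, and CPM use TMM-scaled totals. The code was tested on simulated data. DESeq2 1.42.0, limma 3.58.1 (voom, and log2(FPKM + 1) or log2(FPKM + 0.1)), other scalings and filters, the replicate number as a block and leaving out each library were alternatives, and a gene length offset was added after the data were seen. Shares were compared by exact permutation (scipy 1.17.1). The 10 genes and all lists were chosen with earlier results of these data known. Named were all 10 genes, every called gene and the 3 lowest p of each list, and the 2 most abundant genes of each marker list. Some genes that this rule names are not reported here.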

Additional observations from a re-analysis of the deposited data

How the results depend on the processing

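Hspg2 kept its direction in all 19 alternatives, with log2 fold changes from -1.02 to -0.69 and adjusted p from 1.8e-04 to 0.120, and stayed past the threshold in 12. It was not called by limma on log2(FPKM + 1) (-0.95) or log2(FPKM + 0.1) (-0.98), nor in 5 of the 6 fits without 1 library (-0.89 to -0.72, against -1.02 without DOX replicate 2, where it was called). The count of the 10 genes called lower was 2 with upper-quartile factors, without the low-count filter, with a filter of 5 CPM in 3 samples and with the replicate block, 3 with library totals alone, DESeq2 and limma on log2(FPKM + 1) with a filter of 1 FPKM, 0 with limma on either unfiltered FPKM scale, and 0 to 1 without 1 library. None of the 10 was called higher in any setting. Without PBS replicate 1 the gene called was Lama5 and not Hspg2. Lama4 changed sign with upper-quartile factors (-0.015), library totals (-0.13) and limma on log2(FPKM + 1) with and without its filter (-0.10) and log2(FPKM + 0.1) (-0.11), and ran from -0.16 to 0.16 without 1 library. Without 1 library Lamb1 ran from -0.39 to 0.33, Lamb2 from -0.33 to 0.083 and Lama3 from -0.039 to 0.82, each changing sign. The Lamb1 share of beta chains differed by -5.87 to 3.59 percentage points without 1 library. The median of all genes was -0.14 with library totals alone and -0.12 with the FPKM filter, against -0.01.

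Over all genes, 294 were lower and 632 higher. These counts were 730 lower with library totals (611 higher, 45.6% higher in place of 68.3%), 1015 and 1677 with DESeq2, 11 and 19 with limma on log2(FPKM + 1), 27 and 64 on log2(FPKM + 0.1), 678 lower with the FPKM filter, 192 lower with the length offset, and 0 to 368 lower and 0 to 722 higher without 1 library. No gene passed without PBS replicate 2 or 3 (smallest edgeR adjusted p 0.0663 and 0.0634, with 3294 and 3092 genes at an unadjusted p under 0.05). Of the listed partner genes, 6 were lower and 2 higher in edgeR, against 11 and 9 with DESeq2. Over all genes edgeR called 2.04% lower and 4.38% higher, and DESeq2 called 7.03% and 11.6%. The partner counts were 0 lower and 0 and 1 higher with limma on the 2 FPKM scales. They were 1 higher with library totals and with the FPKM filter, and 4 higher without the low-count filter. Without 1 library they were 0 to 7 lower and 0 to 4 higher. Replicate numbers are not said to mark shared animals or days, so same-numbered libraries were not treated as pairs. Their deviations from the group means had correlations of 0.0949, -0.106 and 0.232, and those of differently numbered libraries ran from -0.230 to 0.140. The highest value was that of PBS and DOX replicate 3, and these correlations cannot decide whether libraries were paired. With the replicate block 159 genes were lower, 1 partner gene was lower, and Hspg2 had -0.85. The causes of these shifts were not tested.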
